A study of Mus musculus with 15 samples.

Results

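The 9 genes Ccr7, S1pr1, Il7r, Lef1, Tcf7, Klf2, Bach2, Satb1 and Foxp1 mark the program of naive T cells and their traffic through lymph nodes. Their levels were followed here in blood of mice that, by a growth note shared by all libraries, carried a transplanted tumor. The mice were untreated or received the antibody αCTLA-4 with neck dissection labelled early or late. The 9 genes were taken by symbol from the 55416 genes listed, and all 9 were found. Mice labelled late neck dissection (ND) had the lowest average level of all of them but Klf2: with levels scaled by TMM, 8 of 9 had a negative log2 difference against early ND and 8 of 9 against untreated mice, while with library totals as the scale all 9 were positive in both comparisons. On the TMM scale Lef1, lower after late than after early ND, alone passed the test across all genes, and relative to the T cell gene Cd3e none of the 9 did. The early ND group, given αCTLA-4 and then node removal on day 6, did not separate from untreated mice for any of the 9. Drug and surgery cannot be told apart in comparisons with untreated mice.

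A naive T cell circulates between blood and lymph nodes until it meets its antigen. It enters a node with the help of the chemokine receptor Ccr7, whose ligands are made in the T cell zone, and leaves it along a gradient of sphingosine-1-phosphate sensed by S1pr1. Its survival between encounters rests on the interleukin 7 receptor (Il7r), and its quiescent state on a set of transcription factors that includes Klf2, Foxp1, Bach2, Satb1 and the paired high-mobility-group factors Lef1 and Tcf7. Several of these genes are also used by B cells, and Klf2 by many other blood and vessel cells.

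Blood of 15 C57BL/6 mice was sequenced as total RNA, with 1 library per mouse and 5 mice per group. The growth note shared by all 15 describes 4MOSC1 cells, a carcinogen-induced mouse oral squamous carcinoma line, placed in the tongue and grown for 10 days. The early and late ND groups received αCTLA-4, an antibody that blocks the T cell checkpoint receptor CTLA-4, and then bilateral removal of the cervical nodes on day 6 (early) or day 11 (late), while the untreated group is labelled as having had neither treatment nor surgery. By the legend of the study the blood was drawn on day 10, before late ND, and by its text after it, so "late ND" names the labelled group and does not say whether the nodes were still in place. For its transplants the study states female mice of 4 to 6 weeks, and the labels give neither sex nor age.

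The blood was not sorted. Between 5527108 and 13924361 counts per library fell on genes, with more in each late ND library than in each early ND library, and hemoglobin genes took 38.3% to 64.1% of them after early ND, 14.9% to 29.3% after late ND and 31.6% to 61.7% in untreated mice. All 16 T cell markers and all 10 B cell markers examined were detected, so the labelled tissue holds both cell types. Levels are given as CPM, counts scaled to a common library size by TMM factors, which equalise the bulk of genes between libraries. The choice bears on every direction below: with library totals in place of TMM the median of all genes lay 0.86 log2 higher after late than after early ND and the median of the 9 members 0.52 higher, and against untreated mice the medians were 0.91 and 0.60. The members' median thus lay below that of all genes on either scale. In 3 libraries (untreated 2, late ND 2 and late ND 3) the 18S ribosomal gene Rn18s-rs5 lay under 5000 CPM, and in 3 others (untreated 5, early ND 3 and late ND 5) Scd3, a lipid gene of sebaceous glands, lay over 300 CPM. Each of the Scd3-rich libraries also had the lowest summed T cell marker level of its group, at 635, 448 and 489 CPM. In bulk blood, fewer T cells and less RNA of a gene per T cell cannot be told apart. The p-values set a group difference against the spread between single mice of a group.

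Per kilobase of exon, the order of the members was set by Klf2, which had a median of 87.0 CPM per kb over the 15 libraries and exceeded the next gene in all 15. Tcf7 at 29.6 and Ccr7 at 29.1 CPM per kb followed, and these neighbours could not be ordered, since Tcf7 was the higher in only 9 of 15 libraries. S1pr1 (20.6) and Il7r (15.5 CPM per kb) came next, S1pr1 being the higher in 13 of 15. A lower tier held Bach2 (4.70), Foxp1 (4.52), Satb1 (3.50) and Lef1 (3.17 CPM per kb), and there the upper neighbour exceeded the lower one in 12, 14 and 12 of 15 libraries. Gene positions below are those of GENCODE on the mouse genome GRCm39. The exon length was that of all annotated isoforms together, which lowers the values of genes with long or many isoforms such as Satb1 and Foxp1. Between 101 and 4975 read pairs stood behind each single value of a member, so that counting alone gave an error of 9.95% at the lowest count of Lef1 and 1.42% at the highest of Klf2.

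**Figure D1:**
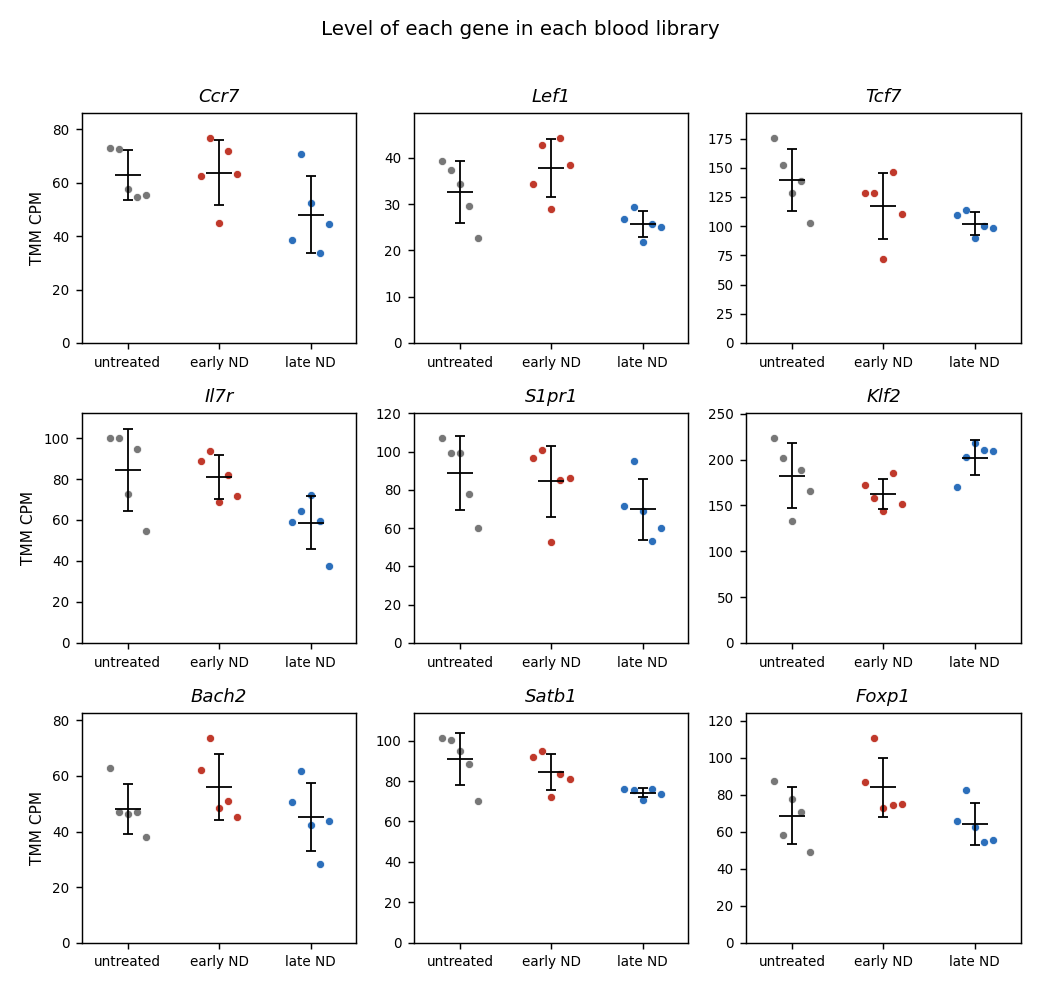
TMM-normalized CPM (vertical axis, from 0, with its own scale for each gene) of the 9 genes in the 15 blood libraries, by group, with replicates 1 to 5 from left to right. Points are single mice, and the bar and whiskers are the mean and SD of 5 mice; the late ND points lie lowest on average for every gene except Klf2, for which they lie highest, on this scale.

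Ccr7 and S1pr1, the receptors for node entry and exit, were lower on average after late ND, with wide overlap. Ccr7 (ENSMUSG00000037944, chr11:99035022-99045911, minus strand) had 73.0, 72.8, 57.8, 54.8 and 55.6 CPM in untreated mice 1 to 5, 62.5, 76.8, 44.8, 71.8 and 63.3 CPM in early ND mice 1 to 5, and 38.6, 70.7, 52.4, 33.8 and 44.6 CPM in late ND mice 1 to 5. Thus 3 late ND mice lay below every early ND mouse, but late ND 2 lay among the higher values of the other groups. The log2 difference of late against early ND was -0.44 (SE 0.20, edgeR's quasi-likelihood test, adjusted p = 0.208) and that of late ND against untreated -0.43 (SE 0.19, adjusted p = 0.266), and neither passed.

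S1pr1 (ENSMUSG00000045092, chr3:115504071-115508721, minus strand) had 107, 99.1, 99.4, 77.6 and 60.0 CPM in the untreated mice, 96.8, 101, 53.0, 85.2 and 86.3 CPM in the early ND mice and 71.5, 95.1, 68.9, 53.4 and 60.0 CPM in the late ND mice. The lowest value of all 15 was that of early ND 3, and the remaining early ND mice fell within the untreated range. The difference was -0.30 (SE 0.19) for late against early ND and -0.39 (SE 0.19) for late ND against untreated, and neither passed edgeR's quasi-likelihood test (adjusted p = 0.36 and 0.324).

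Il7r (ENSMUSG00000003882, chr15:9505874-9530262, minus strand), which carries the survival signal of interleukin 7 in naive and memory T cells, had 99.8, 100.1, 72.5, 94.6 and 54.6 CPM in untreated mice. It had 88.6, 93.8, 68.8, 82.1 and 71.6 CPM after early ND and 59.0, 64.6, 72.4, 59.4 and 37.8 CPM after late ND. In 4 of 5 late ND mice the level lay below every early ND mouse, and late ND 3 lay within the early ND range. Late against early ND gave a log2 difference of -0.49 (SE 0.17, adjusted p = 0.097), and late ND against untreated gave -0.56 (SE 0.20, adjusted p = 0.175), the most negative of the 9 in that comparison, without passing edgeR's quasi-likelihood test.

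Lef1 fell after late ND relative to early ND on the TMM scale, the only change among the 9 that passed there in any comparison of levels, while with library totals it was higher by 0.31, below the 0.86 of all genes. Lef1 and its relative Tcf7 are DNA-binding partners of β-catenin that keep the naive and memory programs of T cells. Lef1 (ENSMUSG00000027985, chr3:130903919-131018005, plus strand) had 39.2, 37.3, 34.3, 29.6 and 22.7 CPM in untreated mice, 34.3, 42.8, 29.0, 44.3 and 38.5 CPM after early ND and 26.7, 29.4, 21.7, 25.8 and 25.1 CPM after late ND. The late ND and early ND ranges touched at 1 pair, late ND 2 over early ND 3, and the untreated mice ranged over most of both. The log2 difference of late against early ND was -0.58 (SE 0.13, 95% interval -0.86 to -0.30, edgeR's quasi-likelihood test, adjusted p = 0.0292), that is from 37.8 ± 6.29 to 25.7 ± 2.77 CPM (mean ± SD, n = 5 each). Against untreated mice, at 32.6 ± 6.62 CPM (SD, n = 5), late ND gave -0.38 (SE 0.15, adjusted p = 0.202 by edgeR's quasi-likelihood test). The call is a narrow one. Without any one of early ND 2, 4 or 5 or late ND 1, 3, 4 or 5 the adjusted p lay between 0.0508 and 0.0836, and without the 18S-poor libraries the difference was -0.59 with an adjusted p of 0.0734 (edgeR's quasi-likelihood test), 0.0298% of all genes being called there. Without the Scd3-rich libraries Lef1 was again the one member called, among 9.22% of all genes. Lef1 also shares 16.3% of its exon bases with Lef1os1, a gene on the opposite strand whose counts came to 15.2% of its own, and since the strand setting of the counting was not given in the sources used here, their reads may be mixed.

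Tcf7 (ENSMUSG00000000782, chr11:52143107-52174619, minus strand) had 176, 152, 129, 138 and 103 CPM in untreated mice, 128, 128, 71.7, 147 and 111 CPM after early ND and 109, 114, 89.4, 99.9 and 98.0 CPM after late ND. Early ND 3 was the lowest of all 15 mice and untreated 1 the highest, and the 5 late ND mice lay in a narrow band between them. Late ND against untreated gave -0.50 (SE 0.15, unadjusted p = 0.00487, adjusted p = 0.0979, edgeR's quasi-likelihood test), and late against early ND gave -0.23 (SE 0.17, adjusted p = 0.453). Neither passed.

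Klf2 (ENSMUSG00000055148, chr8:73072726-73075502, plus strand), the factor that holds T cells quiescent and drives S1pr1, was the one member with a positive difference in both comparisons of late ND. It had 224, 202, 133, 189 and 165 CPM in untreated mice, 172, 159, 144, 186 and 152 CPM after early ND and 170.4, 203, 218, 211 and 209 CPM after late ND. In 4 of 5 late ND mice it exceeded every early ND mouse, while late ND 1 lay within the early ND range. The difference was 0.29 (SE 0.12, unadjusted p = 0.0337, adjusted p = 0.17, edgeR's quasi-likelihood test) for late against early ND and 0.10 (SE 0.15, adjusted p = 0.805) for late ND against untreated, and neither passed. S1pr1, a gene that Klf2 is known to drive, thus had a difference of the opposite sign in both comparisons, with intervals of -0.71 to 0.11 and -0.79 to 0.02 that include 0.

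The stretches in front of 3 transcription starts are shown because these genes carry the contrast: Lef1, which fell, Klf2, which moved the other way without passing, and S1pr1, a known Klf2 target. Each is the 250 bases before the start of the canonical GENCODE transcript in the mouse genome GRCm39, read 5′ to 3′ on the strand of the gene (chr3:130903669-130903918, plus strand; chr8:73072476-73072725, plus strand; chr3:115508722-115508971, minus strand). Capitals mark CACCC, the core that Klf factors recognise, or its reverse complement GGGTG.
Lef1: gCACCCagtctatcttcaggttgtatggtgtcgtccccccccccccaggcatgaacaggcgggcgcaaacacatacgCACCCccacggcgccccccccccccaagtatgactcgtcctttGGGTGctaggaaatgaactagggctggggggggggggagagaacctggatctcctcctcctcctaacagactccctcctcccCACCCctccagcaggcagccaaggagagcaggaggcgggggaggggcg
Klf2: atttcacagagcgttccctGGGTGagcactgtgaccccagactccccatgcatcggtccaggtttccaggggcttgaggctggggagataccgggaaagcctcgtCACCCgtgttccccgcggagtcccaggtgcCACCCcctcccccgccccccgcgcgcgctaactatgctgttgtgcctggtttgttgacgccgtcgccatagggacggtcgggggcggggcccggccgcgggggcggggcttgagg
S1pr1: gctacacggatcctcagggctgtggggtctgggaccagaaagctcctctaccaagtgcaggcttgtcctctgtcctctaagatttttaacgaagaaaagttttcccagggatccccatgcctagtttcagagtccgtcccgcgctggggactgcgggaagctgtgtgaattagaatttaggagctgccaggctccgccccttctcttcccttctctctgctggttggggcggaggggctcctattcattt
The letters CACCC stood on either strand 4 times before Lef1, 3 times before Klf2 and not at all before S1pr1. Of the 9 members 6 held a match, against 52.9% of the windows of all 21770 genes read in this way, so that a match is common in any promoter. Among the 6 are Satb1 and Foxp1, where 250 and 204 of the 250 bases lie in annotated exons of the gene itself. CTTTGAA and CTTTGAT, forms of the core bound by Lef1 and Tcf7, stood on either strand in 4.84% and 2.86% of all windows and in 0 of 9 members. These matches describe the letters of the windows and say nothing of binding.

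Bach2, Satb1 and Foxp1 are regulators of lymphocyte identity: Bach2 restrains effector differentiation in T cells and is a B cell factor, Satb1 organises chromatin in T cells, and Foxp1 keeps naive T cells quiescent and is also used by B cells. Satb1 (ENSMUSG00000023927, chr17:52043114-52140622, minus strand) had 101, 100.3, 94.8, 88.4 and 70.0 CPM in untreated mice, 91.7, 94.6, 72.0, 83.4 and 80.8 CPM after early ND and 75.8, 75.6, 70.5, 76.0 and 73.4 CPM after late ND. The 5 late ND mice lay close together, below 4 of 5 mice of each other group. The differences of late ND were -0.22 (SE 0.10) against early ND and -0.34 (SE 0.12) against untreated mice (edgeR's quasi-likelihood test, adjusted p = 0.207 and 0.156).

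Bach2 (ENSMUSG00000040270, chr4:32238714-32586108, plus strand) had 62.9, 47.2, 46.1, 46.9 and 38.1 CPM in untreated mice, 62.3, 73.7, 48.5, 50.8 and 45.1 CPM after early ND and 50.5, 61.7, 42.2, 28.3 and 43.7 CPM after late ND. Foxp1 (ENSMUSG00000030067, chr6:98902299-99499685, minus strand) had 87.4, 58.2, 77.9, 70.9 and 49.1, 86.8, 111, 73.1, 74.5 and 74.8 and 65.8, 82.7, 62.7, 54.5 and 55.6 CPM in the same order. Both genes were highest of all 15 in early ND 2, and both groups of ND mice overlapped for both. Late against early ND gave -0.34 (SE 0.19) for Bach2 and -0.42 (SE 0.15) for Foxp1, and late ND against untreated -0.13 and -0.13, none of which passed edgeR's quasi-likelihood test (adjusted p between 0.114 and 0.811). A gene on the opposite strand, Bach2os, had 13.2% as many counts as Bach2, so that their reads may be mixed as well.

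Counted over the 9, late against early ND had 1 member lower and 0 higher among 13315 genes tested, of which 2.48% were lower and 2.50% higher. At an unadjusted p under 0.05, 5 members were lower (Lef1, Il7r, Foxp1, Satb1 and Ccr7) where 9.33% of all genes were, and 1 was higher (Klf2) where 14.4% were. The median difference of the 9 was -0.34, against 0.014 for all genes tested. No member separated the 2 groups without overlap, as 7.04% of all genes did. Late ND against untreated mice had 0 members called, where 2.01% of 13547 genes were lower and 0.989% higher. There, 5 members (Tcf7, Satb1, Il7r, Lef1 and Ccr7) were lower and 0 higher at an unadjusted p under 0.05, where 8.28% and 8.69% of all genes were, and the median of the 9 was -0.38 against 0.0023. No member was free of overlap, against 5.84% of all genes. The 2 comparisons share the late ND libraries and are not independent of each other. With DESeq2 in place of edgeR, Foxp1, Il7r and Lef1 were lower after late than after early ND, and Satb1 and Tcf7 lower after late ND than in untreated mice, where DESeq2 called 10.8% and 5.98% of all genes in either direction.

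Early ND and untreated mice differed little for these genes. The log2 differences of early ND against untreated ran from -0.24 for Tcf7 (95% interval -0.67 to 0.18) to 0.30 for Foxp1 (-0.074 to 0.68), with a median of -0.049 against -0.0022 for all genes. No member passed edgeR's quasi-likelihood test and none had an unadjusted p under 0.05, where 2.33% of 12151 genes were lower and 2.11% higher at that level, and 0% of all genes passed in either direction. DESeq2 called 0 members as well, and 0% of all genes. No member separated these groups without overlap, as 0.543% of all genes did. For Ccr7 the 95% interval of the fitted difference was -0.31 to 0.37, and for S1pr1 it was -0.49 to 0.37.

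**Figure D2:**
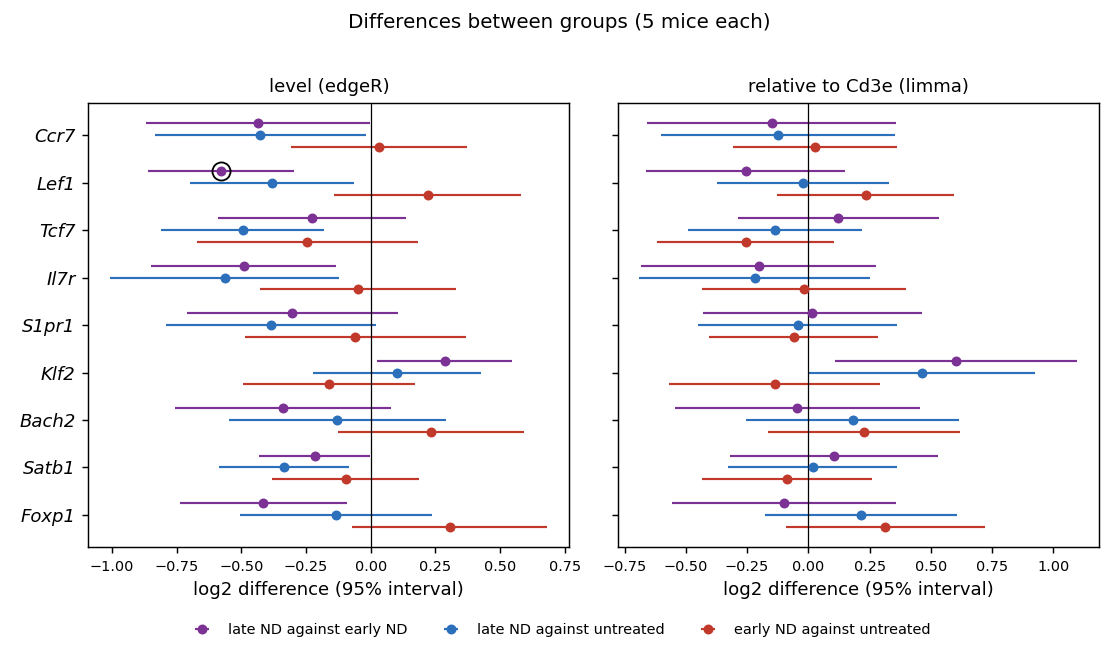
Log2 differences (horizontal axis) of the 9 genes in the 3 comparisons, for the TMM-normalized level by edgeR (left) and for the level relative to Cd3e by limma (right). Points are fitted differences with 95% intervals from 5 against 5 mice, and the circle marks Lef1 in late against early ND, the only one past an adjusted p of 0.05. The late ND differences of every gene but Klf2 are negative on the left (TMM scale) and lie around 0 on the right. Those of Klf2 are positive on both sides, at 0.60 against early ND and 0.46 against untreated mice on the right.

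Setting each gene against Cd3e, the epsilon chain of the T cell receptor complex, asks how its level stood per unit of a T cell transcript. Cd3e had 39.2, 36.8, 39.4, 32.3 and 31.4 CPM in untreated mice, 40.0, 40.9, 24.0, 39.5 and 35.3 CPM after early ND and 36.2, 31.5, 22.8, 30.5 and 25.7 CPM after late ND. It was lowest in early ND 3 and late ND 3 and 5. Its own difference was -0.32 (SE 0.16) for late against early ND and -0.33 (SE 0.14) for late ND against untreated mice, neither of which passed edgeR's quasi-likelihood test (adjusted p = 0.255 and 0.232). A gene on the opposite strand, Gm48719, had 28.6% as many counts as Cd3e itself.

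Relative to Cd3e, 0 of 9 members passed in late against early ND (limma, 3.52% of 13314 genes higher and 0.954% lower). The members' median difference was -0.045, against 0.35 for all genes, and 5 of 9 were negative. Lef1 relative to Cd3e was 1.06 ± 0.129 after early ND and 0.889 ± 0.0978 after late ND (mean ± SD, n = 5 each), a log2 difference of -0.26 (SE 0.19, limma, adjusted p = 0.388). In late ND against untreated mice 0 of 9 passed (limma, 3.09% of 13546 genes higher and 0.819% lower), with a median of -0.022 against 0.37. In early ND against untreated mice 0 of 9 passed, and 0% of all genes did in either direction.

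Klf2 had the most positive difference of the 9 on this scale in both comparisons of late ND, though not an unusual one among all genes. It was 5.70, 5.50, 3.37, 5.86 and 5.27 times Cd3e in untreated mice, 4.30, 3.88, 5.98, 4.70 and 4.31 times after early ND and 4.71, 6.43, 9.59, 6.92 and 8.13 times after late ND. Of the late ND mice 4 exceeded every early ND and every untreated mouse, and late ND 1 lay among them. The difference of 0.60 (SE 0.24, 95% interval 0.11 to 1.10, unadjusted p = 0.0199, limma, adjusted p = 0.12) for late against early ND did not pass, nor did that of 0.46 (SE 0.22, limma, adjusted p = 0.156) for late ND against untreated mice. These values lay at the percentiles 76.3 and 63.6 of all genes, whose medians were 0.35 and 0.37. In late ND against untreated mice Klf2 passed with the sum of Cd3d, Cd3e and Cd3g as denominator (0.62, limma, adjusted p = 0.0308), where the median of all genes was 0.53 and 42.4% of them passed, and with Trac (0.73, adjusted p = 0.0195), where the median was 0.63 and 51.7% passed. In late against early ND it passed when early ND 3 was left out (0.70, limma, adjusted p = 0.0203), where the median was 0.48 and 36.6% passed.

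The ratio of Ccr7 to Cd3e was 1.86, 1.98, 1.47, 1.70 and 1.77 in untreated mice, 1.56, 1.88, 1.86, 1.82 and 1.79 after early ND and 1.07, 2.25, 2.30, 1.11 and 1.74 after late ND. Late ND 1 and 4 lay below every other mouse, and late ND 2 and 3 above. Late ND 2 and 3 were the 18S-poor libraries of their group, and untreated 2, also 18S-poor, had the next highest ratio at 1.98. Whether this split follows the library rather than the mouse was not tested. S1pr1 had ratios from 1.91 in untreated 5 to 2.73 in untreated 1. They were 2.42, 2.46, 2.20, 2.16 and 2.45 after early ND and 1.98, 3.02, 3.03, 1.75 and 2.34 after late ND. Late ND 2 and 3 again lay above every other mouse, while late ND 1 lay above untreated 5 and late ND 4 below every other. The groups overlapped for the remaining genes too, whose late ND means were 3.53 ± 0.376 for Tcf7, 2.06 ± 0.671 for Il7r, 2.59 ± 0.393 for Satb1, 1.57 ± 0.416 for Bach2 and 2.23 ± 0.447 for Foxp1 (SD, n = 5).

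**Figure D3:**
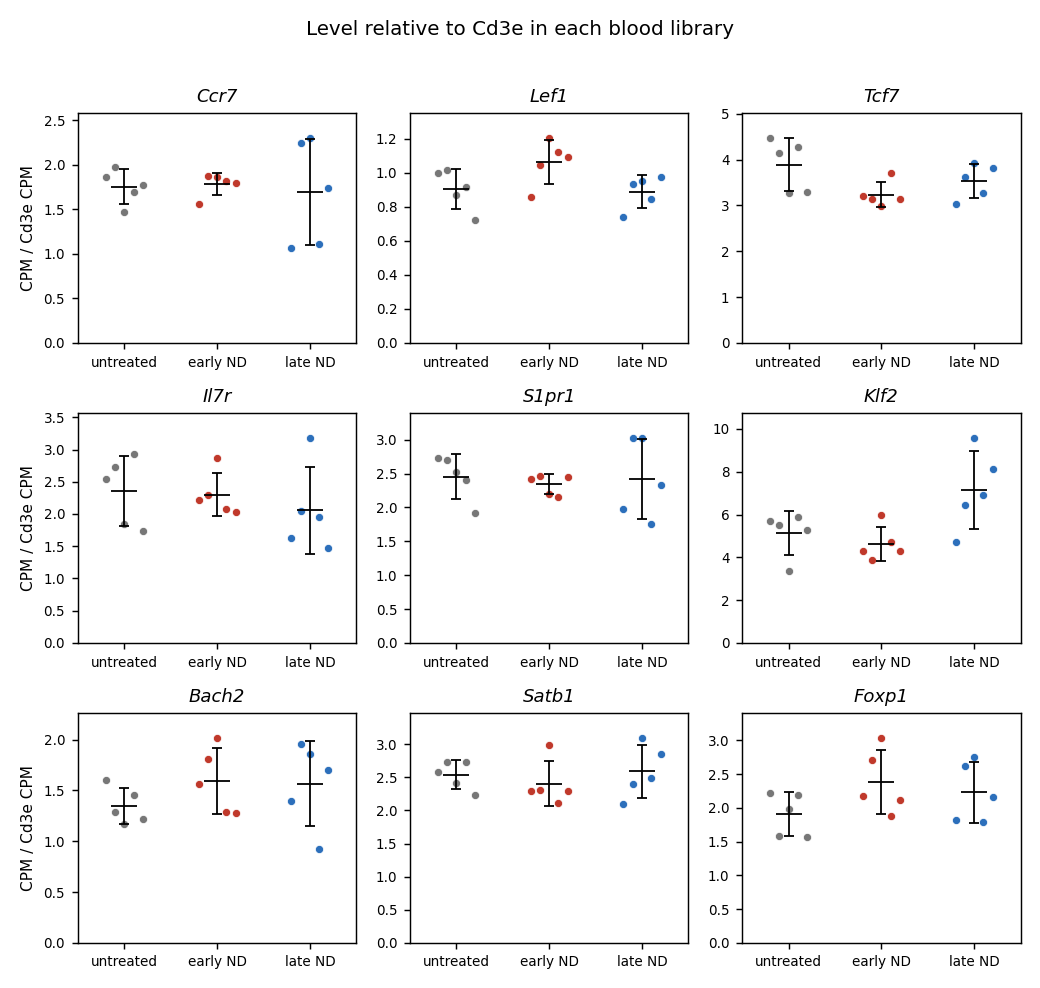
Ratio of the CPM of each gene to that of Cd3e in the same library (vertical axis, from 0, with its own scale for each gene), by group, with replicates 1 to 5 from left to right. Points are single mice and the bar and whiskers the mean and SD of 5; for Klf2 the late ND mean is 7.16 against 4.63 after early ND and 5.14 in untreated mice, while the group means of each other gene differ by smaller factors.

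Over the 15 libraries the members did not all follow the T cell markers. These correlations are descriptions over 15 libraries that share depth, hemoglobin load and group. With the summed level of 16 T cell markers, Tcf7 had a Pearson r of 0.90, Satb1 0.85 and S1pr1 0.83, and with the summed level of 10 B cell markers these had 0.38, 0.46 and 0.78. Bach2 and Foxp1 ran the other way, with r of 0.89 and 0.78 to the B cell markers and 0.43 and 0.37 to the T cell markers. Ccr7 followed both (0.77 to T and 0.79 to B cell markers). Klf2 followed neither, with r of -0.016 to T and -0.14 to B cell markers. Its r was 0.45 to the neutrophil and 0.43 to the monocyte markers. It was higher, at 0.58, to the summed level of 22 other naive and homing genes, a list taken up below. Every other member had a negative r to that list, from -0.62 for Ccr7 to -0.12 for Il7r.

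**Figure D4:**
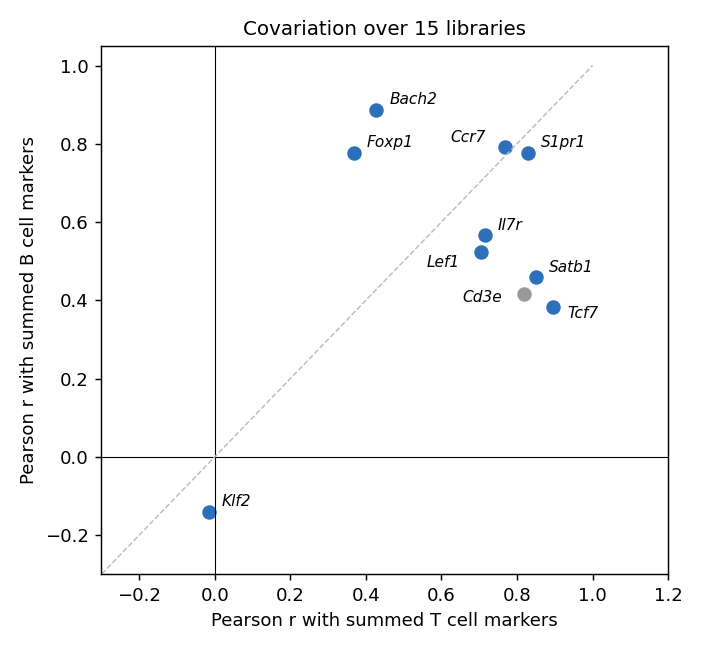
Pearson correlation over 15 libraries of each gene's log2 CPM with the summed level of T cell markers (horizontal axis) and of B cell markers (vertical axis). Blue points are the 9 genes and the grey point is Cd3e, itself 1 of the T cell markers; Bach2 and Foxp1 lie above the dashed line of equal r, Tcf7 and Satb1 below it, and Klf2 near 0 on both axes.

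Between members, the 28 pairs without Klf2 had r from 0.38 to 0.86 (median 0.69), the highest being Bach2 with Foxp1 at 0.86 and Tcf7 with Satb1 at 0.85. The 8 pairs with Klf2 had r from -0.28 to 0.23. Among 9503 other genes, those most like Tcf7 were Zfp260 (0.92), the T cell kinase gene Lck (0.91) and Rps6 (0.89). Among those most like Satb1 were the T cell kinase gene Prkcq (0.88) and the naive T cell gene Nsg2 (0.87). Those most like Bach2 were Fchsd2 (0.96), Myo1e (0.94) and Pml (0.94), and those most like Foxp1 were Ppp3cc (0.93), Cacna1e (0.92) and Rasgrp3 (0.91). Lef1 was nearest to Man1a (0.92), Lsm6 (0.91) and Septin1 (0.90), Ccr7 to Cdc23 (0.91), Rps26 (0.90) and Pus3 (0.90), and S1pr1 to Rpsa (0.93), Septin6 (0.92) and Cnp (0.90). Il7r was nearest to Septin6 (0.87), Pdcd4 (0.84) and Rpsa (0.84), and Klf2 to Banp (0.85), Git1 (0.82) and Sertad1 (0.81).

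The cell type markers moved with these results in part. The T cell list was summed to 635 to 916 CPM in untreated mice, 448 to 764 CPM after early ND and 489 to 627 CPM after late ND. Late ND against untreated had 3 of 16 T cell markers lower and 0 higher (Trbc2 -0.74, Cd3g -0.63 and Thy1 -0.59, edgeR's quasi-likelihood test, adjusted p = 0.0242 to 0.0274), with a median of -0.45. Of all genes, 2.01% were lower and 0.989% higher there. All 16 were negative in that comparison, and 15 were lower at an unadjusted p under 0.05 (edgeR's quasi-likelihood test), where 8.28% of all genes were. Without overlap between the groups, 5 of 16 were lower, where 5.84% of all genes separated in either direction. Late against early ND had 0 of 16 called and a median of -0.27, all 16 negative. There, 3 were lower at an unadjusted p under 0.05, where 9.33% of all genes were, and 0 were free of overlap, against 7.04% of all genes. The B cell list was summed to 1353 to 2023 CPM in untreated mice, 1516 to 2705 CPM after early ND and 875 to 2607 CPM after late ND. None of its 10 genes was called in any comparison, all 10 being negative in late against early ND (median -0.36). The share of these lists in the members' differences was not tested.

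Other genes of the naive and homing program, 22 by a list that left out the 9 members, did not share their direction. In late against early ND, 11 were positive and 11 negative, with a median of 0.031. One passed as higher, where 2.50% of all genes did: Il4ra (0.81, SE 0.21, edgeR's quasi-likelihood test, adjusted p = 0.0488), the receptor chain for interleukin 4, which myeloid and B cells also express. In late ND against untreated mice Nsg2 (-0.85, SE 0.18, adjusted p = 0.0293) and Igfbp4 (-0.63, SE 0.12, adjusted p = 0.0242), both genes of naive T cells, were lower (edgeR's quasi-likelihood test) and 0 were higher, with a median of -0.092. Of all genes, 2.01% were lower and 0.989% higher. In early ND against untreated mice 0 of 22 were called.

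Of the effector and activated T cell list, 0 genes were called in any comparison (15 tested in late against early ND, 16 in late ND against untreated, 15 in early ND against untreated), with medians of 0.055, -0.071 and 0.071. NK cell and platelet markers had 0 of 4 called in each comparison. Myeloid markers were higher in part: Csf1r (0.75) and Itgam (0.94) among 7 monocyte markers, Mmp8 (1.81) among 10 neutrophil markers and Flt3 (0.94) among 6 dendritic cell markers after late against early ND, and Csf1r (0.73), Ccr2 (1.11) and Flt3 (1.28) after late ND against untreated mice. Of 8 erythroid markers tested, 5 and 4 were lower in these comparisons, with medians of -2.41 and -2.62. These calls are by edgeR's quasi-likelihood test at an adjusted p under 0.05. Of all genes, 2.50% were called higher and 2.48% lower in late against early ND, and 0.989% and 2.01% in late ND against untreated. The neutrophil markers were summed to 4568 to 11959 CPM in untreated mice, 2460 to 7655 CPM after early ND and 6250 to 15770 CPM after late ND. Their median difference was 1.09 in late against early ND, 0.19 in late ND against untreated and -0.87 in early ND against untreated. The early ND sums were thus the lowest on average, but the ranges of all groups overlapped. In early ND against untreated 0 of 10 neutrophil markers were called, as were 0% of all genes, and 0 were free of overlap. The part of these lists in the members' differences was not tested.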

How the data were processed

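Per the labels, the deposited values are raw counts of read pairs per gene, made by the authors with STAR 2.7.9 and HTSeq 0.13.5 and not normalized. Of the uniquely aligned pairs 43.6% to 48.0% were counted on genes, and the 5 counters of unassigned pairs were left out. Counts of the 15 libraries were joined by Ensembl identifier, and 54749 of 55416 identifiers matched GENCODE. The 9 members and all marker lists were chosen with earlier results of these data known.

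Groups were compared in pairs with edgeR 4.0.16 (filterByExpr, TMM, quasi-likelihood test) on all genes, 5 mice against 5, p-values being adjusted after Benjamini and Hochberg and called under 0.05. Levels relative to Cd3e were log2 CPM (prior count 2) minus that of Cd3e in the same library, tested with limma 3.58.1 in R 4.3.3, with Cd3e left out. DESeq2 1.42.0 served as an alternative. The scripts were tested on simulated data. The text names all 9 members, the 3 genes most like each over the 15 libraries (Pearson r of log2 CPM, mean of at least 5 CPM) and, per list and comparison, up to 4 called genes of the largest fold. Single values of 2 genes that this rule or the lists include are not reported here. Same-numbered mice were treated as unpaired. Intervals are 95% intervals of the fitted difference between groups. For edgeR the SE was taken as the absolute log2 difference over the square root of the test's F statistic. Counting errors cover counting only.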

Additional observations from a re-analysis of the deposited data

Results flagged for a closer look

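Of 57 sets of 5 mice examined, a gene's level or its ratio to Cd3e in 1 group, 5 had an extreme mouse whose gap to the nearest other exceeded 0.71 of the group's range, where chance alone flags about 1 in 20. Of these 5, 3 came from early ND 3, the Scd3-rich library with the lowest summed T cell markers of its group. S1pr1 was low there at 53.0 CPM (gap 0.739 of the range), Cd3e was low at 24.0 CPM (0.722), and Satb1 relative to Cd3e was high at 2.99 (0.735). That ratio has the low Cd3e value as its denominator, so it is not a separate flag. Satb1 itself was the lowest of its group there, at 72.0 CPM. Klf2 relative to Cd3e was low in untreated 3 at 3.37 (0.804), and Ccr7 relative to Cd3e was low in early ND 1 at 1.56 (0.743). The cause of these values was not tested.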

How the results depend on the processing

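Depth, at 101 to 4975 counts per member and library, and 5 mice per group limit what these comparisons can show, and the scale decides the direction. With library totals in place of TMM, 3 members were called in late against early ND (Klf2, Satb1 and Tcf7) and 3 in late ND against untreated (Bach2, Foxp1 and Klf2), all higher, where 68% and 55.9% of all genes were called. The sign of 6 members reversed in late against early ND, to 0.48 for Ccr7, 0.31 for Lef1, 0.66 for Tcf7, 0.35 for Il7r, 0.63 for Satb1 and 0.44 for Foxp1, and that of 7 in late ND against untreated, to 0.53 for Ccr7, 0.56 for Lef1, 0.46 for Tcf7, 0.35 for Il7r, 0.87 for Bach2, 0.60 for Satb1 and 0.89 for Foxp1. The medians of all genes on that scale were 0.86 and 0.91. Other changes of sign, without an unadjusted p under 0.05 on either side, came to 2, 1 and 13 of 162 values in late against early ND, late ND against untreated and early ND against untreated, and relative to Cd3e to 12, 23 and 16 of 153. DESeq2 called 3 members in late against early ND and 2 in late ND against untreated, with 10.8% and 5.98% of all genes. Without the 18S-poor libraries 0 were called in late against early ND, where 4 genes of all were called and 6 members were lower at an unadjusted p under 0.05. Leaving out each mouse in turn gave 0 to 1 members called in late against early ND (Lef1), and 0 to 3 in late ND against untreated, the 3 being Lef1, Satb1 and Tcf7 without untreated 5 (4.22% of all genes). Relative to Cd3e it gave 0 to 1 in late against early ND, the 1 being Klf2 without early ND 3 (36.6% of all genes). Klf2 was also the 1 member called relative to the sum of Cd3d, Cd3e and Cd3g, and the 1 called relative to Trac, in late ND against untreated, where 42.4% and 51.7% of all genes were called. TMM without hemoglobin and 18S genes, no filter on low counts, and 1 fit of all 15 libraries left Lef1 as the member called in late against early ND, as did leaving out the Scd3-rich libraries, an alternative chosen after seeing the data. In early ND against untreated 0 were called under every alternative run. The cause of these changes was not tested.

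With the replicate number as a block, Lef1 was the member called in late against early ND, 1 member relative to Cd3e was (Klf2 0.60, limma, adjusted p = 0.0186) where 25.2% of all genes were, and 1 was in late ND against untreated (Il7r -0.56, edgeR's quasi-likelihood test, adjusted p = 0.0420) where 4.48% of all genes were. Pairing by number was not borne out throughout. The deviations of same-numbered mice correlated at -0.18 to 0.46 in late against early ND and 0.029 to 0.58 in late ND against untreated. In early ND against untreated they correlated at -0.24 to 0.080. Late ND mice 2, 4 and 5 correlated best with the untreated mouse of their own number, and late ND 2 with early ND 2. No early ND mouse correlated best with the untreated mouse of its own number. Of these, untreated 2 and late ND 2 were both 18S-poor, and untreated 5 and late ND 5 both Scd3-rich. Whether the numbers mark pairs was not tested.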

Other observations

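The sign of the ratios differed with the T cell gene chosen as denominator. In early ND against untreated mice Cd3e had a log2 difference of 0.016 (SE 0.15), Cd3d of -0.28 (SE 0.20) and Trac, the constant segment of the T cell receptor alpha chain, of -0.33 (SE 0.18), none of which passed edgeR's quasi-likelihood test (adjusted p = 0.997, 0.940 and 0.938). Relative to Cd3e, 5 of the 9 members were negative there, with a median of -0.017. Relative to Trac, 0 were negative and the median was 0.31, where the median of all genes was 0.33. In late ND against untreated mice Trac had -0.61 (SE 0.15, adjusted p = 0.0532) and Cd3e -0.33, and 0 members were negative relative to Trac (median 0.24) against 5 relative to Cd3e.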
